A study of Mus musculus with 35 samples.

Results

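The genes described here build and maintain cilia. They are every annotated mouse gene whose symbol begins with Dnah, Dnai, Rsph or Tekt, called the motile axoneme genes, and every gene whose symbol begins with Ift and a digit, called the Ift genes. The rule read symbols alone and used no measured value. The annotation held 43 such genes, 29 of the motile axoneme and 14 Ift genes. Of these, 36 had a named probe on the array (22 motile and 14 Ift), and 33 (19 motile and 14 Ift) were detected often enough to be tested, among 18090 genes tested in all. Dnah10, Dnah14 and Rsph6a had a probe but did not pass the detection filter, and Dnah7a, Dnah7b, Dnah7c, Dnah12, Rsph3b, Tekt2 and Tekt4 had no named probe here. The intermediate chain genes carry the symbols Dnaic1 and Dnaic2 in the annotation used.

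The RNA came from medullary thymic epithelial cells (mTECs) of the mouse, the thymic stroma that displays proteins of peripheral tissues to developing T cells. Cells were sorted in 6 separate sorts into a fraction positive and a fraction negative for 1 tissue-restricted antigen: Pdpn, Gp2, Cea1 and Tspan8 were sorted with antibodies, and Gad1 and Ins2 through reporter mice. The design asks which genes are expressed together with each antigen. Each fraction was measured on 2 or 3 Illumina bead arrays, called biological replicates by the labels, and 34 of the 35 arrays labelled entered the fit. Pdpn-positive and Pdpn-negative cells, Gad1-positive and Gad1-negative cells, Cea1-positive and Cea1-negative cells, and Tspan8-positive and Tspan8-negative cells had 3 arrays each. Gp2-positive cells had 2 arrays and Gp2-negative cells 3. Ins2-positive cells had 3 arrays and Ins2-negative cells 2, because the signal column of Ins2-negative replicate 2 did not hold that array's signals. Strain, age, the reporter alleles, the sorting gates and whether replicates came from separate animals are not given in the sources used here, so p-values measure the spread between these arrays.

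A motile cilium is a bundle of doublet microtubules, the axoneme, that bends when dynein motors slide neighbouring doublets against each other. Outer and inner dynein arms are built from heavy chains (the Dnah genes), which hold the motor, and intermediate chains (Dnai genes), which anchor the outer arm; radial spokes (Rsph genes) carry signals from the central pair of microtubules to the arms, and tektins (Tekt genes) lie inside the doublet wall. Intraflagellar transport carries cargo along the axoneme of motile and non-motile cilia alike: complex IFT-B moves cargo to the tip and complex IFT-A takes part in the return. The thymic medulla is known to hold epithelial cells that resemble ciliated cells of the airway, and mTECs are also known for expressing genes of many tissues, testis and airway among them. Ciliary genes in many tissues are switched on by the transcription factors Foxj1, a forkhead protein, and the RFX family.

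Promoter windows are shown for the tested genes called in 5 or 6 sorts that have one (Rsph9, Dnah11, Dnah2 and Ift20), so that the letters before their start sites can be read beside the values that follow. Of the 7 genes called in 4 sorts, Dnaic2 and Tekt1 were added because their windows hold the RFX arm described next; those of Dnah9, Dnah17, Dnaic1 and Ift22 do not hold it and are not shown. Tekt1 has 2 windows in the table, and the one that holds the RFX arm is printed. RefSeq windows (build GRCm38.p6) from 250 bases before to 50 bases after the start were found for 37 of the 43 genes, and Rsph1 and Rsph4a had no entry. Each is printed 5′ to 3′ on the strand of its gene, with capitals marking the 6 letters GTTGCC or their reverse complement GGCAAC, one arm of the motif that RFX proteins bind and called the RFX arm here. The windows of Rsph9 (chr17:46144151-46144450, minus strand), Dnah11 (chr12:118198994-118199293, minus strand), Dnah2 (chr11:69549059-69549358, minus strand), Ift20 (chr11:78536111-78536410, plus strand), Dnaic2 (chr11:114727169-114727468, plus strand) and Tekt1 (chr11:72361833-72362132, minus strand) read as follows.
Rsph9: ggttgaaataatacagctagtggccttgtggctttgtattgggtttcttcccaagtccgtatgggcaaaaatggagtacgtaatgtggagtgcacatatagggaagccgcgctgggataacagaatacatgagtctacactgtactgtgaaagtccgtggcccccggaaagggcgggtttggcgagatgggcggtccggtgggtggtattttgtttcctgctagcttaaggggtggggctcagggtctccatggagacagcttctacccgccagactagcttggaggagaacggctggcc
Dnah11: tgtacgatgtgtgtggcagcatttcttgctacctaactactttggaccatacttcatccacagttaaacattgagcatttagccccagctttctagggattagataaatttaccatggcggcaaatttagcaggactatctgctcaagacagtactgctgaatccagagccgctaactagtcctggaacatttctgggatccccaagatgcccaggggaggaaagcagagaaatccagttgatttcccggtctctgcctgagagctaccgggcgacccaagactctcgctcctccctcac
Dnah2: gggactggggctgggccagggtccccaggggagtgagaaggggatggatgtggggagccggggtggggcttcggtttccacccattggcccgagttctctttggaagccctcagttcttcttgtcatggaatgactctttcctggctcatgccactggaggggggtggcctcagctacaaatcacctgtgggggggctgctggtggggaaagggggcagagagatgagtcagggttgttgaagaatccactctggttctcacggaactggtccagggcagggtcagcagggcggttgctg
Ift20: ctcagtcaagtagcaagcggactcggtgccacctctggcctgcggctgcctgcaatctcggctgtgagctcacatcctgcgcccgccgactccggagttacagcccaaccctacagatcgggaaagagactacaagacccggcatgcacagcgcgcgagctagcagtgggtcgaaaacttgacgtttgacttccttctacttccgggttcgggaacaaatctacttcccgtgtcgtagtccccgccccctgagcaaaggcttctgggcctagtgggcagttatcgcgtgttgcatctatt
Dnaic2: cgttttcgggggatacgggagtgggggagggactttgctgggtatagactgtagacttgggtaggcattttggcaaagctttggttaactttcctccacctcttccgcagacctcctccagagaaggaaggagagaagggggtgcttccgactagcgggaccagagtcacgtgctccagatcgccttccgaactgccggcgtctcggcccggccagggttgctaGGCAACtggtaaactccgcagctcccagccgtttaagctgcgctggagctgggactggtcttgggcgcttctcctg
Tekt1: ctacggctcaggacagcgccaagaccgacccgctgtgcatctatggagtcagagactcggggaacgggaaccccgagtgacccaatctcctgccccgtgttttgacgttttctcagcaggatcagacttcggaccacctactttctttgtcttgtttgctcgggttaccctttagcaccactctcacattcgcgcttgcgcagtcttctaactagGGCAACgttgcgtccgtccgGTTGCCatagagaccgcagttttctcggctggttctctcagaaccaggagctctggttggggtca

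Both strands were searched. The Dnaic2 window held 1 RFX arm, beginning 26 bases before the start, and the Tekt1 window held 2, beginning 35 and 15 bases before it, while the other 4 windows shown held none. Shares were counted by gene, and a gene with several windows was counted when any of them held the letters. The RFX arm was present for 14 of the 37 genes (37.8%), 9 of 26 motile genes (34.6%) and 5 of 11 Ift genes (45.5%). It was present for 14.1% of all 27025 genes in the table. Among the 27 tested genes with a window it was present in 7 (25.9%). A paired RFX site, GTTNCC and GGNAAC with 0 to 3 bases between, was found in the window of Ift57 alone, as GTTGCCTGGTAAC beginning 60 bases before the start, where it overlaps the RFX arm. The share of all genes with such a pair was 0.936%. The forkhead letters GTAAACA occurred in the windows of Dnah17 and Tekt3 (5.41% of the 37 genes), against 4.05% of all genes. These matches are a description of the letters in the windows.

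The fractions carried their labels in the RNA: the gene of the sorted antigen was higher in the positive cells of every sort, by 4.41 (Pdpn), 3.98 (Gp2), 0.66 (Gad1), 4.78 (Ceacam1, in the Cea1 sort), 1.74 (Ins2) and 4.80 (Tspan8) on the log2 scale. The Gp2 signal stood at 14.80 on both Gp2-positive arrays, next to the upper end of the quantile-normalised scale (14.85), so its difference is read as a lower bound. Between 47.1% (Gp2-positive replicate 2) and 60.8% (Gp2-negative replicate 1) of the probes were detected on an array. Replicates correlated with Pearson's r of 0.971 to 0.992 across the 34083 probes that passed the detection filter. Of 12 mTEC identity genes, among them Aire, Epcam and Krt5, at most 1 was detected on no array of a group. Markers of other cells were higher in the positive cells of several sorts. In Gp2-positive cells all 11 tested thymocyte genes were higher, with a mean over genes of 9.35 to 9.71 per array, against 5.88 to 7.30 in Gp2-negative cells, and 8 of 9 genes of the cortical thymic epithelium were higher (array means 10.06 to 10.19 in Gp2-positive and 7.20 to 7.34 in Gp2-negative cells). Of the thymocyte genes, 0 were detected on no array of Gp2-positive cells and 1 on none of Gp2-negative cells. In Pdpn-positive cells 8 of 10 fibroblast and pericyte genes were higher, with array means of 8.28 to 8.70, against 6.34 to 6.40 in Pdpn-negative cells. In Cea1-positive cells 6 of 10 endothelial genes were higher, with array means of 6.30 to 6.98, against 5.69 to 5.83 in Cea1-negative cells. The part of these cells in the results for the Gp2, Pdpn and Cea1 sorts was not tested. RNA of whole fractions cannot tell fewer cells expressing a gene from less RNA per cell.

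The motile axoneme genes went in opposite directions in different sorts. Among the 19 tested, 12 were lower and 1 higher in Pdpn-positive cells, 9 lower and 1 higher in Gp2-positive cells, and 8 lower and 2 higher in Tspan8-positive cells, each against the negative cells of the same sort. In Gad1-positive cells 11 were higher and 1 lower, in Ins2-positive cells 8 higher and 1 lower, and in Cea1-positive cells 2 higher and 1 lower. With any 1 Tspan8 array left out, 6 motile genes were lower and 2 or 3 higher in that sort. Higher and lower always describe the positive cells, and a gene was called when its adjusted p from limma, with Benjamini-Hochberg adjustment over all 18090 genes of the sort, was below 0.05. By that rule 37.3% of all genes were called in the Pdpn sort, 39% in the Gp2 sort, 38.4% in the Gad1 sort, 29% in the Cea1 sort, 34.5% in the Ins2 sort and 43% in the Tspan8 sort. Split by direction, all genes were called higher at 18.2% in Pdpn, 18% in Gp2, 19.2% in Gad1, 13.4% in Cea1, 16.8% in Ins2 and 19.1% in Tspan8, and lower at 19.1% in Pdpn, 21% in Gp2, 19.2% in Gad1, 15.6% in Cea1, 17.7% in Ins2 and 23.9% in Tspan8. In the Pdpn, Gp2, Gad1 and Ins2 sorts the calls were thus close to balanced over all genes and one-sided among the tested motile genes. Quantile normalisation, used here, gives all arrays one distribution: of all called genes 46.1% were higher in Gp2 and 48.6% in Ins2, and with median scaling instead 22.1% in Gp2 and 16.9% in Ins2.

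The median difference of the 19 motile genes (log2, positive over negative cells) was -0.64 in Pdpn, -0.58 in Gp2, 0.58 in Gad1, -0.02 in Cea1, 0.43 in Ins2 and -0.17 in Tspan8. Over all genes tested the median lay between -0.04 and 0.00. The array means over the 19 genes showed the same split without overlap in 5 sorts: 5.71 to 5.86 in Pdpn-positive and 6.24 to 6.38 in Pdpn-negative cells, 5.35 to 5.44 in Gp2-positive and 5.90 to 6.08 in Gp2-negative cells, and 6.36 to 6.38 in Gad1-positive and 5.74 to 5.78 in Gad1-negative cells. They were 6.37 to 6.52 in Ins2-positive and 5.99 to 6.01 in Ins2-negative cells, and 6.01 to 6.09 in Tspan8-positive and 6.32 to 6.36 in Tspan8-negative cells. In the Cea1 sort the means overlapped, at 5.98 to 6.10 in Cea1-positive and 6.04 to 6.09 in Cea1-negative cells. The Ins2 counts depend on the scaling of the arrays: under median scaling, which moved the median of all genes to -0.25 in that sort and to -0.23 in Gp2, 4 motile genes were called higher and 2 lower in Ins2-positive cells. In the Gp2 sort 2 were then higher and 11 lower, in Pdpn 1 and 10, in Gad1 9 and 1, in Cea1 1 and 1, and in Tspan8 4 and 7.

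The median differences of the 14 Ift genes lay nearer 0 than those of the motile genes in the Pdpn, Gp2, Gad1 and Ins2 sorts, a contrast given as a description. In Gp2-positive cells 6 were lower and 1 higher, and in Ins2-positive and in Tspan8-positive cells 5 were lower and 1 higher. In Pdpn-positive cells 3 were lower and 2 higher, in Gad1-positive cells 2 higher and 1 lower, and in Cea1-positive cells 2 were higher and none lower. Their median differences were -0.02 in Pdpn, -0.31 in Gp2, -0.06 in Gad1, -0.17 in Cea1, -0.20 in Ins2 and -0.27 in Tspan8. The contrast with the motile genes depended on the processing in Gp2 and Ins2. Under median scaling the Ift median lay further from 0 than the motile median there (-0.80 against -0.66 in Gp2, and -0.74 against 0.28 in Ins2). In Gp2 it was also further from 0 with no background correction (-0.21 against -0.18). The same held there with the authors' normalized values (-0.21 against -0.16) and with no detection filter (-0.31 against -0.17). The share of Ift genes called, 5 of 14 in Pdpn and 6 of 14 in Tspan8, was near that of all genes in those sorts. The Gp2 count of 7 calls was 4 without Gp2-positive replicate 2, and the Ins2 count of 6 was 3 without Ins2-positive replicate 3. The Tspan8 count of 6 was 3 without Tspan8-negative replicate 1 and also without Tspan8-positive replicate 2.

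**Figure D1:**
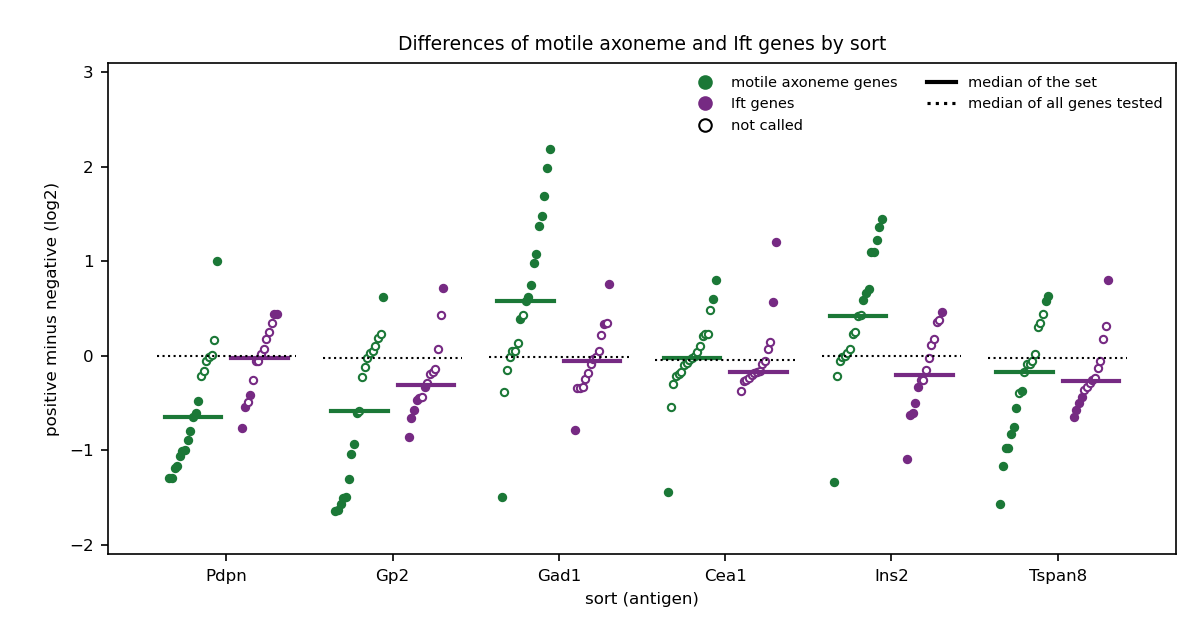
Log2 difference (positive minus negative cells) of each tested gene in each of the 6 sorts, with 1 dot per gene (open where not called): 19 motile axoneme genes in green and 14 Ift genes in purple, a bar at each family's median and a dotted line at the median of all 18090 genes. The green medians sit at -0.64 (Pdpn) and -0.58 (Gp2) and at 0.58 (Gad1) and 0.43 (Ins2), while the purple medians stay between -0.31 and -0.02.

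Of the 33 tested genes, 26 were called in at least 1 sort, against 75.7% of all genes, a share near that of the 33. Called higher in 1 sort and lower in another were 13 of the 19 motile and 2 of the 14 Ift genes, against 26.5% of all genes. The motile genes called lower in Pdpn-positive and in Gp2-positive cells and higher in Gad1-positive cells numbered 8 of 19: Dnah2, Dnaic1, Dnaic2, Rsph1, Rsph4a, Rsph9, Tekt1 and Tekt5. Of all genes 6.48% had these 3 calls. These 8 were among the 12 called lower in Pdpn, the 9 called lower in Gp2 and the 11 called higher in Gad1. Of the 8, 5 (Dnah2, Rsph1, Rsph4a, Rsph9 and Tekt1) were called higher in Ins2-positive cells as well, a set of 4 calls that 2.13% of all genes had. Both patterns of calls were chosen after the directions of the motile genes were seen, so the counts beside these shares are a description. Dnah1, Dnah3, Dnah6, Tekt3, Ift122, Ift46 and Ift57 were called in no sort; of these, Dnah1 was detected on 5 of the 34 arrays, Dnah3 on 9, Dnah6 on 3, Tekt3 on 3, Ift46 on 7 and Ift57 on 13.

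**Figure D2:**
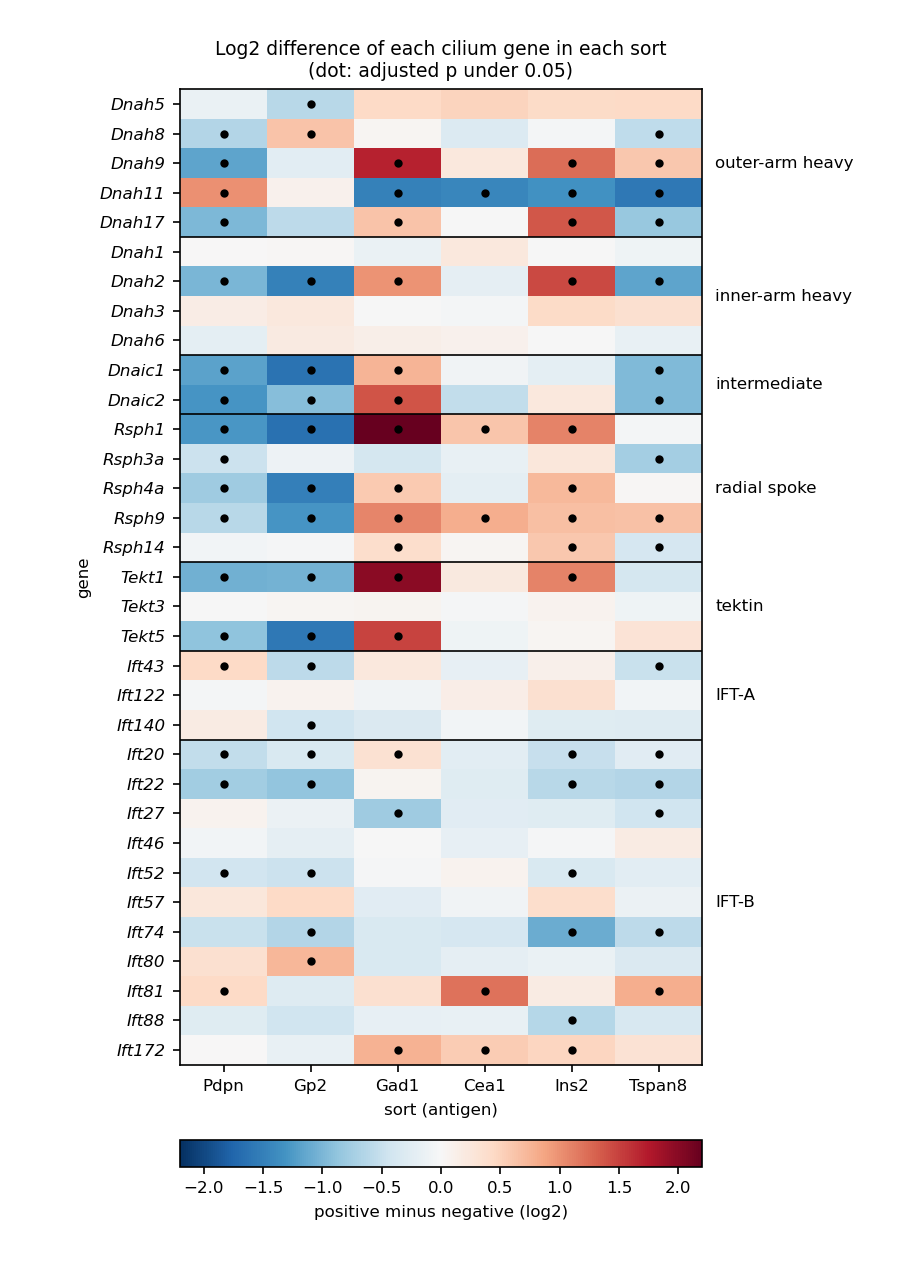
Log2 difference (positive minus negative cells) of the 33 tested genes, 1 line per gene and 1 column per sort, in colour from lower to higher in positive cells, with a dot where the adjusted p was below 0.05. Most motile genes called in the Pdpn and Gp2 columns are lower and most called in the Gad1 column are higher, and Dnah11 runs against most other motile genes in the Pdpn, Gad1 and Ins2 columns.

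Of the radial spoke genes, Rsph1 had the largest differences in the Gad1 and Gp2 sorts. Rsph1, a protein of the spoke head, stood at 9.68, 9.83 and 9.71 in Gad1-positive cells, against 7.64, 7.59 and 7.43 in Gad1-negative cells (log2 normalised signal, here and for all values by array). All Gad1-positive arrays lay above all Gad1-negative arrays, with a mean difference of 2.19 (95% interval 1.89 to 2.49), or 4.55-fold, with adjusted p = 7.1e-14 by limma. In the Gp2 sort Rsph1 stood at 6.47 and 6.72 in Gp2-positive cells, against 8.02, 8.45 and 8.24 in Gp2-negative cells. Here every positive array was below every negative one (difference -1.64, 3.12-fold lower, adjusted p = 4.5e-10). Rsph1 was also lower in the Pdpn sort, at 7.79, 8.17 and 7.98 in Pdpn-positive cells, against 9.23, 9.23 and 9.33 in Pdpn-negative cells, and higher in the Ins2 sort, at 9.69, 9.21 and 9.57 in Ins2-positive cells, against 8.73 and 8.05 in Ins2-negative cells. Neither pair of groups overlapped (differences -1.29, adjusted p = 1.1e-08, and 1.10, adjusted p = 2.1e-06). In Cea1-positive cells Rsph1 was higher by 0.61 (adjusted p = 0.0018), and in the Tspan8 sort its groups overlapped (difference -0.05, interval -0.35 to 0.25). Under median scaling the Ins2 and Cea1 calls of Rsph1 were lost (0.42, adjusted p = 0.15, and 0.47, adjusted p = 0.11).

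Rsph9, another spoke head protein, was the only one of the 33 genes called in all 6 sorts, as were 4.42% of all genes. It was lower in the Pdpn sort, at 7.74, 7.59 and 7.62 in Pdpn-positive cells, against 8.26, 8.23 and 8.28 in Pdpn-negative cells, and in the Gp2 sort, at 6.35 and 6.20 in Gp2-positive cells, against 7.25, 7.72 and 7.75 in Gp2-negative cells. In these 2 sorts no positive array reached a negative one (differences -0.61 and -1.30, adjusted p = 0.0025 and 3.1e-07 by limma). It was higher in the positive cells of the other 4 sorts: 8.16, 8.67 and 8.26 in Gad1-positive cells, against 7.24, 7.34 and 7.29 in Gad1-negative cells, and 8.30, 8.22 and 8.74 in Cea1-positive cells, against 7.52, 7.79 and 7.56 in Cea1-negative cells. The order was the same in Ins2, with 8.76, 8.26 and 8.25 in Ins2-positive cells, against 7.91 and 7.61 in Ins2-negative cells, and in Tspan8, with 8.64, 8.69 and 8.98 in Tspan8-positive cells, against 8.15, 8.07 and 8.18 in Tspan8-negative cells. The 4 differences were 1.07 (Gad1), 0.80 (Cea1), 0.66 (Ins2) and 0.64 (Tspan8), or 2.11-fold, 1.74-fold, 1.58-fold and 1.55-fold. A second Rsph9 probe, detected on 34 arrays, gave the same signs in all 6 sorts (-0.66, -0.66, 0.87, 0.96, 0.58 and 0.80 in Pdpn, Gp2, Gad1, Cea1, Ins2 and Tspan8). The Ins2 call of Rsph9 was lost without Ins2-negative replicate 3 (0.51, adjusted p = 0.095), and under median scaling its Ins2 difference was -0.01, where the median of all genes was -0.25, and its Pdpn call was lost (-0.53, adjusted p = 0.06). Its promoter window, printed above, held none of the searched letters.

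Rsph4a, a spoke head protein whose human counterpart is mutated in primary ciliary dyskinesia, fell furthest in the Gp2 sort, at 6.28 and 6.60 in Gp2-positive cells, against 7.76, 7.95 and 8.13 in Gp2-negative cells (-1.51, 2.84-fold lower, adjusted p = 1.5e-05 by limma). Both Gp2-positive arrays lay below the 3 Gp2-negative ones. Rsph4a was lower in Pdpn-positive cells (difference -0.79), where the call was just lost without Pdpn-positive replicate 3 (adjusted p = 0.052). It was called higher in Gad1-positive cells (0.58, adjusted p = 0.0496) and Ins2-positive cells (0.71, adjusted p = 0.033), but the groups overlapped in both sorts. Leaving out 1 array lost the Gad1 call in 4 of 6 cases (differences 0.26 to 0.90, the lowest without Gad1-negative replicate 2). It lost the Ins2 call in 3 of 5 cases (0.28 to 1.14, the lowest without Ins2-negative replicate 3). Rsph3a, a protein of the spoke stalk, was lower in Tspan8-positive cells (-0.75, adjusted p = 0.0014) and in Pdpn-positive cells (-0.47, adjusted p = 0.048), the second a call lost without any 1 of 5 of the 6 arrays (-0.56 to -0.37). Rsph14 was detected on 11 of the 34 arrays. It was at least 1.45-fold higher in Ins2-positive cells (adjusted p = 0.0055), at least 1.11-fold higher in Gad1-positive cells (adjusted p = 0.037) and at least 1.2-fold lower in Tspan8-positive cells (adjusted p = 0.043). These are bounds because the dimmer group had the probe detected on no array. A gene this near background passes the detection filter through the groups where it is bright, so these values are given as a description. The Gad1 groups of Rsph14 overlapped, and its Gad1 call was lost in 5 and its Tspan8 call in 6 of 6 cases when 1 array was left out (differences 0.28 to 0.60 and -0.41 to -0.34). Its Ins2 call was lost with each sort fitted alone (adjusted p = 0.070). With the authors' normalized values its Ins2, Gad1 and Tspan8 calls were all lost (adjusted p = 0.080, 0.078 and 0.091). Median scaling ended the calls of Rsph4a in Gad1 (0.65, adjusted p = 0.067) and Ins2 (0.03, adjusted p = 0.95), of Rsph3a in Pdpn (-0.39, adjusted p = 0.23), and of Rsph14 in Gad1 (0.29, adjusted p = 0.19) and Tspan8 (-0.31, adjusted p = 0.14).

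Of the tektins, filament proteins of the doublet wall, Tekt1 behaved much as Rsph1 did in direction. It stood at 7.54, 7.86 and 7.56 in Gad1-positive cells, against 5.48, 5.53 and 5.98 in Gad1-negative cells. The Gad1 groups were far apart, by 1.99 (95% interval 1.55 to 2.43), or 3.97-fold, with adjusted p = 3.5e-09 by limma. Tekt1 was higher in the Ins2 sort too, at 7.83, 7.13 and 7.02 in Ins2-positive cells, against 6.50 and 5.96 in Ins2-negative cells (difference 1.10, adjusted p = 5.0e-04), a call lost under median scaling (0.45, adjusted p = 0.2). It was lower in the Pdpn sort, at 5.91, 5.91 and 5.80 in Pdpn-positive cells, against 6.80, 7.00 and 6.99 in Pdpn-negative cells (-1.06, adjusted p = 1.8e-04), and in the Gp2 sort, at 5.09 and 5.61 in Gp2-positive cells, against 6.30, 6.78 and 6.10 in Gp2-negative cells (-1.04, adjusted p = 7.5e-04). None of these 4 pairs of groups overlapped. A second Tekt1 probe, detected on 32 arrays, gave 1.98 in Gad1, 1.65 in Ins2, -0.43 in Pdpn and -1.16 in Gp2. The RFX arms in the Tekt1 window, printed above, lie within 35 bases of the start.

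Tekt5, known from the sperm flagellum, stood at 6.63, 6.72 and 6.37 in Gad1-positive cells, against 5.07, 5.19 and 5.01 in Gad1-negative cells. These arrays did not overlap, and the difference was 1.48 (2.79-fold, adjusted p = 5.6e-07 by limma). Tekt5 was lower in Pdpn-positive cells (-0.89, adjusted p = 8.3e-04). In the Gp2 sort it stood at 4.17 and 4.23 in Gp2-positive cells, against 5.63, 5.69 and 5.97 in Gp2-negative cells, and was detected on neither positive array, which makes it at least 2.51-fold lower there (adjusted p = 1.4e-06). Tekt5 did not pass the test in the Ins2 sort (difference 0.03, interval -0.44 to 0.51), where Tekt1 did. Tekt3 was detected on 3 arrays in all and was called in no sort.

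**Figure D3:**
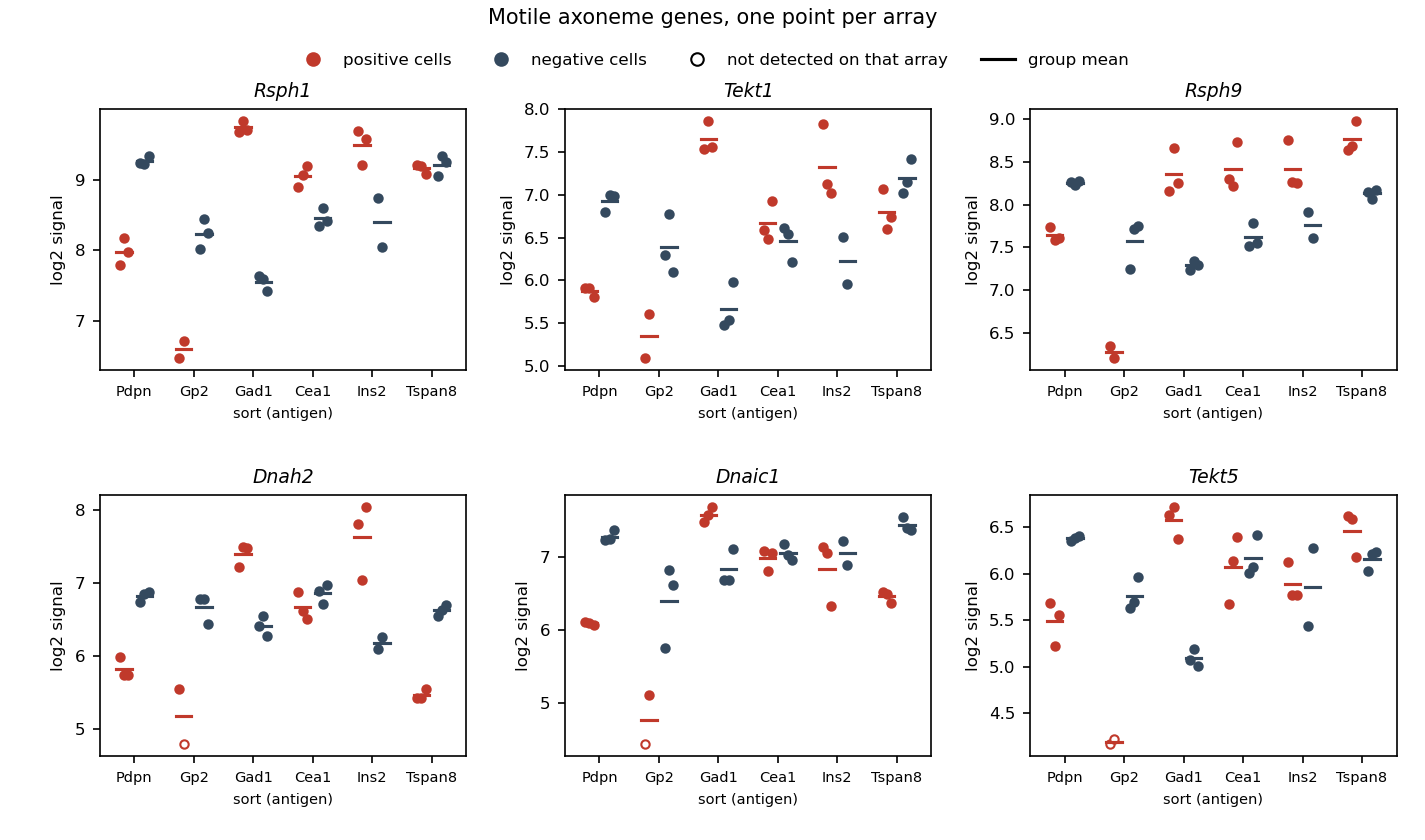
Log2 normalised signal of Rsph1, Tekt1, Rsph9, Dnah2, Dnaic1 and Tekt5 on every array by sort, with positive cells in red on the left and negative cells in slate on the right of each pair, a bar at the group mean and open symbols where the probe was not detected on that array. Rsph1 stands at 9.68, 9.83 and 9.71 in Gad1-positive and 7.64, 7.59 and 7.43 in Gad1-negative cells, and at 6.47 and 6.72 in Gp2-positive and 8.02, 8.45 and 8.24 in Gp2-negative cells.

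The outer-arm heavy chains, which power the beat, did not move as a block. Dnah9, an outer-arm chain of airway cilia, stood at 8.37, 8.75 and 8.69 in Gad1-positive cells, against 6.65, 7.05 and 7.05 in Gad1-negative cells. The groups did not overlap, and the difference was 1.69 (3.23-fold, adjusted p = 8.3e-11 by limma). Dnah9 was also higher in the Ins2 sort, at 8.57, 8.91 and 8.86 in Ins2-positive cells, against 7.61 and 7.50 in Ins2-negative cells (difference 1.23, adjusted p = 7.5e-07), and in Tspan8-positive cells (difference 0.58, adjusted p = 0.0022). Its Ins2 call was lost under median scaling (0.54, adjusted p = 0.11). It was lower in Pdpn-positive cells (-1.17, adjusted p = 2.0e-07). A second Dnah9 probe, detected on 15 arrays, gave 1.30 in Ins2 and 0.30 in Tspan8, with the sign of the probe used, but 0.23 in Pdpn, 1.35 in Gp2 and -0.12 in Gad1, against it.

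Dnah17, known in human as an outer-arm chain of the sperm flagellum, was higher in the Ins2 sort, at 6.36, 6.38 and 6.64 in Ins2-positive cells, against 4.80 and 5.38 in Ins2-negative cells. All 3 positive arrays exceeded both negative arrays (1.37, 2.58-fold, adjusted p = 3.3e-05 by limma). It was higher in Gad1-positive cells by 0.62 (adjusted p = 0.024), a call lost without replicate 3 of either Gad1 fraction (0.58 without Gad1-positive replicate 3 and 0.44 without Gad1-negative replicate 3). Lower values were found in Pdpn-positive cells (-0.99, adjusted p = 4.1e-04) and in Tspan8-positive cells (-0.83, adjusted p = 0.0022). Its second probe was detected on 5 arrays only and lay between -0.07 and 0.35 in all sorts.

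Dnah5, the outer-arm chain most often mutated in human primary ciliary dyskinesia, was called in the Gp2 sort alone, at least 1.27-fold lower in Gp2-positive cells, where it was detected on no array (adjusted p = 0.022 by limma). That call was lost without any 1 of 4 of the 5 arrays (-0.66 to -0.58). Dnah8, an outer-arm chain of sperm, was lower in Pdpn-positive cells (-0.64, adjusted p = 0.016) and Tspan8-positive cells (-0.56, adjusted p = 0.035) and higher in Gp2-positive cells (0.62, adjusted p = 0.038). The Pdpn and the Gp2 groups overlapped. None of the 3 Dnah8 calls held throughout when arrays were left out in turn. They were lost in 3 of 6 cases in Pdpn, in 6 of 6 in Tspan8 and in 3 of 5 in Gp2. The differences ran over -0.86 to -0.50 in Pdpn, over -0.57 to -0.54 in Tspan8 and over 0.15 to 1.09 in Gp2, the lowest of the last without Gp2-positive replicate 1. Under median scaling the Gp2 calls of Dnah5 (adjusted p = 0.052) and Dnah8 (0.53, adjusted p = 0.084) were lost.

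Dnah11, an outer-arm chain of the node and airway, ran against most other motile genes in the Pdpn, Gad1 and Ins2 sorts. It stood at 7.13, 7.36 and 7.47 in Gad1-positive cells, against 8.65, 8.75 and 9.04 in Gad1-negative cells. Every Gad1-positive array was below every Gad1-negative one (-1.49, 2.82-fold lower, adjusted p = 2.9e-09 by limma). Dnah11 was lower too in Cea1-positive (-1.44), Ins2-positive (-1.33) and Tspan8-positive cells (-1.56) and higher in Pdpn-positive cells (1.01), with adjusted p between 5.5e-10 and 5.0e-06 in these sorts, and its Gp2 difference was 0.10. Its second probe, detected on 24 arrays, shared the sign of the 5 called differences in Ins2 alone: it gave 0.41 in Gad1, 0.05 in Cea1, -0.27 in Ins2, 0.41 in Tspan8 and -0.01 in Pdpn. The span of Dnah11 on chromosome 12 shares 731 bases with that of Cdca7l, and the probe's position is not in the sources used here. The 5 called differences of the probe used had the signs of Mki67 (1.17, -2.98, -1.46, -1.42 and -2.67 over Pdpn, Gad1, Cea1, Ins2 and Tspan8). Mki67 is 1 of 13 tested proliferation genes, and the comparison was made after the values were seen. In Gp2, where Mki67 was 1.68, the Dnah11 difference of 0.10 was not called and was -0.46 under median scaling. Whether that probe reads Dnah11 was not tested, and the Dnah11 values are those of the probe.

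Among the inner-arm heavy chains, which shape the waveform of the beat, Dnah2 was the only one called. In the Ins2 sort it stood at 7.81, 7.04 and 8.04 in Ins2-positive cells, against 6.10 and 6.26 in Ins2-negative cells. The positive arrays were all higher, by 1.45 (2.73-fold, adjusted p = 3.9e-06 by limma). Dnah2 was higher in the Gad1 sort as well, at 7.22, 7.49 and 7.47 in Gad1-positive cells, against 6.41, 6.55 and 6.27 in Gad1-negative cells (0.99, adjusted p = 1.7e-04). The positive cells were lower in 3 sorts. Dnah2 stood at 5.55 and 4.79 in Gp2-positive cells, against 6.78, 6.78 and 6.43 in Gp2-negative cells (difference -1.49, adjusted p = 1.7e-06). It stood at 5.98, 5.74 and 5.74 in Pdpn-positive cells, against 6.73, 6.85 and 6.88 in Pdpn-negative cells (interval of the difference -1.41 to -0.59, adjusted p = 1.4e-04), and in Tspan8 the difference was -1.17 (adjusted p = 1.1e-05). None of the groups of these 5 sorts overlapped, and the Cea1 groups did (difference -0.19). Dnah1, Dnah3 and Dnah6 were detected on 9 arrays or fewer, and none of them passed the test in any sort. Dnah3 was detected on 2 of 3 Ins2-positive arrays and 0 of 2 Ins2-negative arrays, and on 3 of 3 Tspan8-positive and 0 of 3 Tspan8-negative arrays. These positive groups themselves meet the detection filter that admitted Dnah3, so the counts are no sign of a difference.

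The intermediate chains Dnaic1 and Dnaic2, which tie outer arms to the doublets, shared their calls in 4 sorts. Dnaic1 stood at 4.44 and 5.11 in Gp2-positive cells, against 5.76, 6.83 and 6.62 in Gp2-negative cells. Its Gp2-positive arrays were the lowest of the 34 arrays, and the difference was -1.63 (3.09-fold lower, adjusted p = 1.2e-06 by limma). Dnaic1 was lower in the Pdpn sort, at 6.11, 6.11 and 6.07 in Pdpn-positive cells, against 7.23, 7.24 and 7.37 in Pdpn-negative cells (-1.18, adjusted p = 3.5e-05), and in Tspan8-positive cells (-0.97, adjusted p = 3.2e-04). It was higher in Gad1-positive cells by 0.75 (adjusted p = 0.0057). A second probe, detected on 33 arrays, gave -0.78, -1.12, -0.74 and 0.54 in Gp2, Pdpn, Tspan8 and Gad1. Dnaic2 followed, with 5.99, 5.42 and 5.79 in Gad1-positive cells, against 4.23, 4.65 and 4.18 in Gad1-negative cells (1.38, 2.6-fold, adjusted p = 2.2e-05). Dnaic2 was lower in the positive cells of Pdpn (-1.29, adjusted p = 5.9e-05), Gp2 (-0.93, adjusted p = 0.0064) and Tspan8 (-0.97, adjusted p = 0.0013). The Gp2 call of Dnaic2 was lost without Gp2-positive replicate 2 (-0.55, adjusted p = 0.22). Neither chain passed the test in the Ins2 sort (-0.21, interval -0.71 to 0.28, and 0.23, interval -0.32 to 0.79), where Dnah2, Rsph1 and Tekt1 were called higher. Under median scaling Dnah2 alone of these 3 kept its Ins2 call (0.79, adjusted p = 0.014), and Dnaic1 was called lower there (-0.83, adjusted p = 0.014).

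Among the Ift genes, the IFT-B genes Ift81 and Ift172 held the largest rises. Ift81, whose protein binds tubulin cargo together with Ift74, stood at 8.75, 8.87 and 9.29 in Cea1-positive cells, against 7.77, 7.60 and 7.94 in Cea1-negative cells. The Cea1 groups did not overlap, and the difference was 1.20 (95% interval 0.91 to 1.49), or 2.3-fold, with adjusted p = 4.5e-08 by limma. Ift81 was higher in the Tspan8 sort, at 8.94, 9.20 and 9.09 in Tspan8-positive cells, against 8.32, 8.23 and 8.27 in Tspan8-negative cells (0.80, adjusted p = 1.7e-05). The other 2 Ift81 probes gave 1.41 and 1.21 in Cea1 and 0.81 and 0.81 in Tspan8. A smaller rise in Pdpn-positive cells (0.44, adjusted p = 0.013) was not shared by these probes (-0.22 and -0.06) and was lost without replicate 2 of either Pdpn fraction (0.41 without Pdpn-positive replicate 2 and 0.37 without Pdpn-negative replicate 2). Ift172, a peripheral IFT-B protein, was higher in the Gad1 sort, at 10.03, 10.41 and 10.02 in Gad1-positive cells, against 9.71, 9.27 and 9.19 in Gad1-negative cells (0.76, adjusted p = 2.0e-05), and in the Cea1 sort, at 10.23, 10.15 and 10.56 in Cea1-positive cells, against 9.70, 9.63 and 9.91 in Cea1-negative cells (0.57, adjusted p = 0.0013). Its Ins2 rise (0.47, adjusted p = 0.014) was lost without Ins2-negative replicate 1 (0.37, adjusted p = 0.17) and was -0.17 under median scaling. The other Ift172 probes gave 1.03 and 1.02 in Gad1 and 0.31 and 0.47 in Cea1. Median scaling ended the Ift81 call in Pdpn (0.49, adjusted p = 0.1) and the Ift172 call in Cea1 (0.43, adjusted p = 0.15).

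Ift20 and Ift22 were lower in the positive cells of 4 sorts. Ift20, an IFT-B protein that also works at the Golgi, stood at 10.42, 10.31 and 10.24 in Pdpn-positive cells, against 10.96, 10.84 and 10.77 in Pdpn-negative cells, and at 10.34, 10.24 and 10.26 in Ins2-positive cells, against 10.82 and 10.74 in Ins2-negative cells. Both pairs were separated, with differences of -0.54 (adjusted p = 3.5e-05 by limma) and -0.50 (adjusted p = 4.0e-04). The Ift20 falls in Gp2 (-0.33) and Tspan8 (-0.25) were smaller and lost their calls in 2 of 5 and 5 of 6 cases when 1 array was left out (-0.39 to -0.28 and -0.32 to -0.20). In the Gad1 sort Ift20 was higher, at 11.06, 11.26 and 11.12 in Gad1-positive cells, against 10.81, 10.65 and 10.96 in Gad1-negative cells (0.34, adjusted p = 0.0053), but not without Gad1-negative replicate 2 (0.26, adjusted p = 0.055). Ift22, a small GTPase-like IFT-B protein, was lower in the Gp2 sort, at 6.34 and 6.43 in Gp2-positive cells, against 7.09, 7.21 and 7.45 in Gp2-negative cells (-0.86, adjusted p = 0.0012), and in Pdpn-positive cells (-0.76, adjusted p = 0.0015). Its falls in Tspan8 (-0.65, adjusted p = 0.005) and Ins2 (-0.61, adjusted p = 0.024) lost their calls in 2 of 6 and 3 of 5 cases (-0.83 to -0.49 and -0.80 to -0.41). For Ift20 the calls in Pdpn (-0.51, adjusted p = 0.059), Gad1 (0.23, adjusted p = 0.44) and Tspan8 (-0.06, adjusted p = 0.85) were lost under median scaling.

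The other IFT-B genes were called in 3 sorts or fewer. Ift27, a small GTPase of the complex, was lower in the Gad1 sort, at 8.68, 8.67 and 8.86 in Gad1-positive cells, against 9.61, 9.54 and 9.43 in Gad1-negative cells. The groups did not overlap (-0.79, 1.73-fold lower, adjusted p = 1.1e-05 by limma), and a second probe gave -1.40. Its fall in Tspan8-positive cells (-0.44) was just lost without Tspan8-positive replicate 3 (adjusted p = 0.051). Ift74, the partner of Ift81, was at least 2.09-fold lower in Ins2-positive cells, where it was detected on no array (adjusted p = 4.0e-04), but its second probe, detected on 12 arrays, gave 0.23. The Ift74 falls in Gp2 (-0.65) and Tspan8 (-0.57) were lost in 2 of 5 and 4 of 6 cases (-0.93 to -0.38 and -0.71 to -0.49). Ift52, a core IFT-B protein, was lower in Pdpn-positive (-0.41, adjusted p = 0.0028) and Gp2-positive cells (-0.47, adjusted p = 0.0024), and a fall in Ins2 (-0.33) was lost in 3 of 5 cases (-0.46 to -0.21). Other IFT-B calls did not hold throughout when 1 array was left out. Ift88 in Ins2 (-0.62) was lost without replicate 3 of either Ins2 fraction (-0.78 to -0.46 over all cases). Ift80 in Gp2 (0.72) was lost without Gp2-positive replicate 1 (0.31) and without Gp2-negative replicate 3 (0.56). Ift46 and Ift57 were called in no sort. Median scaling ended the calls of Ift27 in Tspan8 (-0.28, adjusted p = 0.31), Ift52 in Pdpn (-0.35, adjusted p = 0.26) and Ift80 in Gp2 (0.60, adjusted p = 0.073), and Ift52 in Gp2 was lost with each sort fitted alone (adjusted p = 0.052).

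Of the 3 IFT-A genes, Ift43 was called in 3 sorts. It was higher in the Pdpn sort, at 9.10, 9.16 and 9.27 in Pdpn-positive cells, against 8.75, 8.73 and 8.70 in Pdpn-negative cells (0.45, adjusted p = 0.0098 by limma), and lower in the Tspan8 sort, at 8.32, 8.45 and 8.46 in Tspan8-positive cells, against 8.88, 8.94 and 8.90 in Tspan8-negative cells (-0.50, adjusted p = 0.0033). Neither pair of groups overlapped, but both calls were lost under median scaling (0.48, adjusted p = 0.061 in Pdpn, and -0.35, adjusted p = 0.17 in Tspan8). In the Gp2 sort it stood at 7.24 and 7.96 in Gp2-positive cells, against 8.13, 8.32 and 8.06 in Gp2-negative cells (-0.57), and the call was lost without Gp2-positive replicate 1 (-0.21, adjusted p = 0.37). Ift140, a core IFT-A protein, was lower in Gp2-positive cells (-0.44, adjusted p = 0.029); without Gp2-positive replicate 2 the difference was -0.18 and without Gp2-negative replicate 2 it was -0.40, neither called. Ift122 passed the test in no sort, and its differences ran over the sorts between -0.08 in Gad1 and 0.36 in Ins2.

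**Figure D4:**
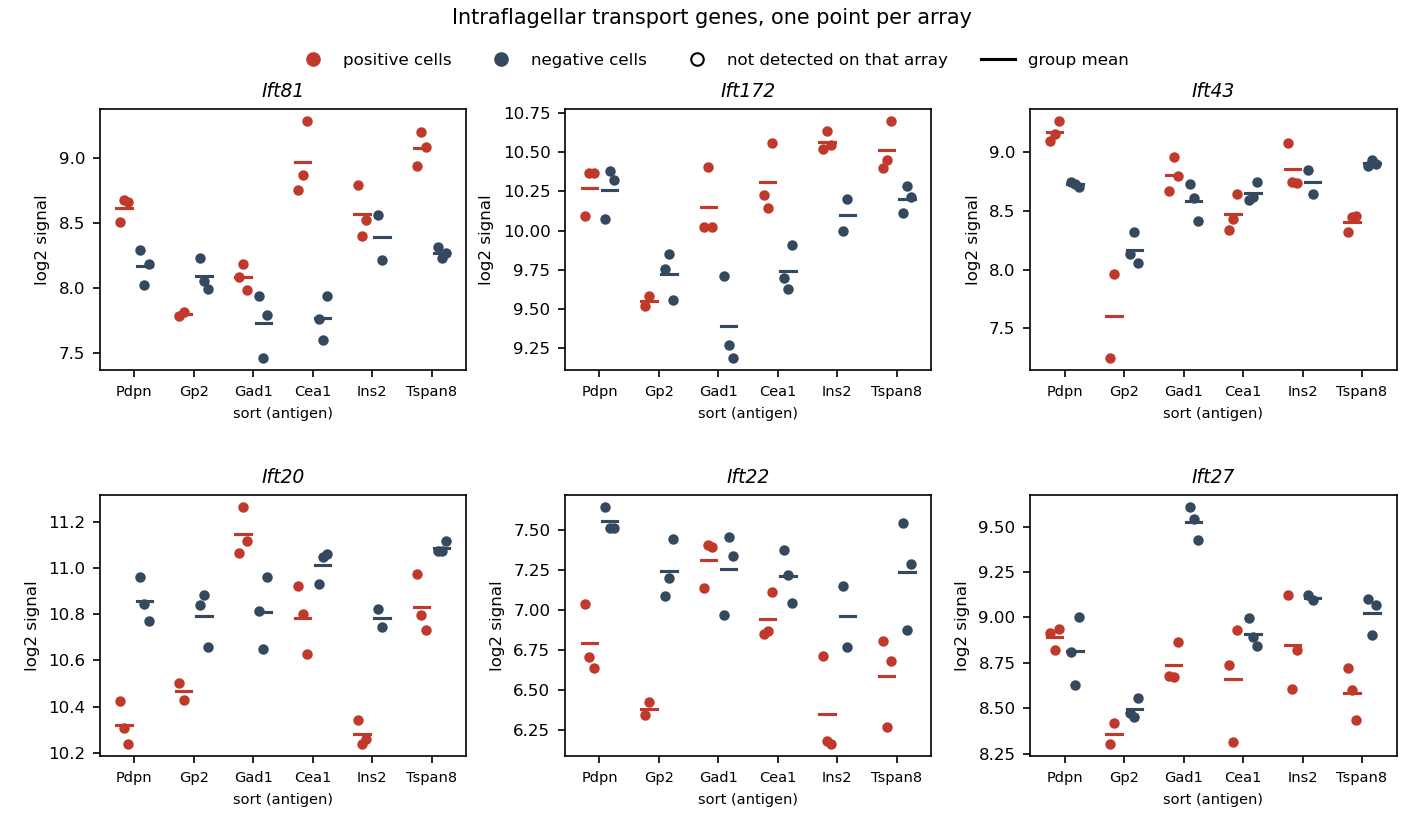
Log2 normalised signal of Ift81, Ift172, Ift43, Ift20, Ift22 and Ift27 on every array by sort, with positive cells in red on the left and negative cells in slate on the right of each pair and a bar at the group mean. Ift81 separates in the Cea1 sort (8.75, 8.87 and 9.29 in positive and 7.77, 7.60 and 7.94 in negative cells) and Ift27 in the Gad1 sort (8.68, 8.67 and 8.86 in positive and 9.61, 9.54 and 9.43 in negative cells).

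Whether the differences themselves differed between sorts was tested by an F test over the 6 sorts in the same limma fit. It passed for 23 of the 33 genes, at adjusted p below 0.05, and for 61.5% of all genes. The smallest adjusted p were 2.9e-16 for Rsph1, 3.0e-12 for Dnah11, 4.1e-12 for Dnah9 and 1.2e-10 for Dnah2. For Rsph1 the difference in Gp2 minus that in Gad1 was -3.83 (SE 0.22, adjusted p = 9.2e-16). For Tekt1 the difference in Pdpn minus that in Gad1 was -3.05 (adjusted p = 4.5e-10). Over the 15 pairs of sorts, Rsph1 differed in 13 pairs, Dnah2, Dnah9 and Tekt5 in 11 each, and Ift81 in 8, which leads the Ift genes. The share of all genes that differ in as many pairs was not counted, so these counts are a description. The Ift81 difference in Gp2 minus that in Cea1 was -1.49 (SE 0.22, adjusted p = 1.1e-06). Pdpn minus Tspan8 was 0.94 for Ift43 (adjusted p = 2.2e-04), and Pdpn minus Gad1 was -0.88 for Ift20 (adjusted p = 2.6e-06).

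Levels over the 12 groups are a description, because the sorts differ in antibody or reporter mice. Rsph1 was highest in Gad1-positive cells, at 9.74 ± 0.08 (SD, n = 3), followed by Ins2-positive cells at 9.49 ± 0.25 (SD, n = 3) and Pdpn-negative cells at 9.26 ± 0.06 (SD, n = 3) (the Ins2-positive arrays overlapped both neighbours in this order). It was lowest in Gp2-positive cells, at 6.59 ± 0.18 (SD, n = 2), and next lowest in Gad1-negative cells, at 7.55 ± 0.11 (SD, n = 3), with no overlap between the arrays of these groups. Among the genes detected on more than 13 of the 34 arrays, Gp2-positive cells also had the lowest mean of Dnah17, Dnah2, Dnaic1, Rsph4a, Rsph9, Tekt1 and Tekt5 and of Ift27, Ift43, Ift88 and Ift140. Ins2-positive cells had the highest mean of Dnah17, Dnah2, Dnah9, Rsph4a, Ift122 and Ift172. Gad1-positive cells had the highest mean of Rsph1, Tekt1, Tekt5, Dnaic1 and Ift20, and Tspan8-positive cells that of Dnah5, of Rsph9, at 8.77 ± 0.18 (SD, n = 3), and of Ift81, at 9.08 ± 0.13 (SD, n = 3).

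Other cilium genes on the array were taken from lists of textbook members, chosen with earlier results of these data known. Some lists share genes, so their counts are not independent. All lists were counted with quantile normalisation alone, and how the counts depend on the scaling was not tested. Of 14 tested ciliated cell markers, 11 were higher and 0 lower in Gad1-positive cells (median 1.22), among them Dynlrb2 (3.29, adjusted p = 6.1e-17), Riiad1 (2.18) and Fam183b (2.81). In Gp2-positive cells 0 were higher and 12 lower (median -1.28), with Dynlrb2 at -2.35, Mlf1 at -2.39 and Pifo at -1.64, and in Pdpn-positive cells 0 were higher and 9 lower (median -0.57). The counts were 8 higher and 1 lower in Cea1, 7 and 1 in Ins2, and 6 and 3 in Tspan8. The mean over these markers on each array was 7.13 to 7.26 in Gad1-positive and 5.63 to 5.88 in Gad1-negative cells, and 5.30 to 5.49 in Gp2-positive and 6.55 to 6.70 in Gp2-negative cells. These arrays separated in both sorts, and 3 of the markers were detected on no array of Gp2-positive cells and 3 on none of Gad1-negative cells. With quantile normalisation the ciliated markers thus followed the direction of the motile genes in the Pdpn, Gp2, Gad1 and Ins2 sorts. In Tspan8-positive cells 6 of the markers were higher, while the motile genes were mostly lower. In the Cea1 sort the markers were mostly higher (median 0.61), and the motile genes were not (2 higher and 1 lower, median -0.02).

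Of 26 genes of the nexin links, the central pair and other axoneme parts, 18 were higher and 0 lower in Gad1-positive cells (median 0.92), among them Nme5 (1.64), Cfap53 (2.02) and Cfap45 (1.92). In Gp2-positive cells 1 was higher and 12 lower, with the central pair protein Spag6l at -2.56 (adjusted p = 1.6e-11 by limma), and in Pdpn-positive cells 1 was higher and 11 lower, with Spag6l at -1.68. The counts higher and lower were 4 and 1 in Cea1, 9 and 1 in Ins2, and 3 and 3 in Tspan8. Of 9 dynein assembly and docking genes, 4 were higher and 1 lower in Gad1, 1 and 5 in Gp2, 0 and 3 in Pdpn, 4 and 0 in Cea1, 4 and 0 in Ins2, and 2 and 0 in Tspan8. The assembly factor Zmynd10 had a difference of 0.86 in Gad1 and was at least 2.01-fold lower in Gp2-positive cells, where it was detected on no array, and Spag1 was 2.23 in Tspan8. Of 16 sperm and spermatid genes, 7 were higher and 0 lower in Gad1, among them Ldhc (1.59). The counts of these sperm genes were 0 higher and 3 lower in Pdpn, 1 and 4 in Gp2, 0 and 1 in Cea1, 2 and 1 in Ins2, and 1 and 3 in Tspan8.

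Transport genes beyond the Ift family were counted in the same way, and several of the counts lie at or below the shares of all genes called in that direction, given above. Of 11 kinesin-II and dynein-2 motor genes, 0 were higher and 8 lower in Gp2-positive cells (median -0.57), among them the dynein-2 light chain gene Tctex1d2 (-1.26, adjusted p = 4.9e-07 by limma). The counts higher and lower were 1 and 2 in Pdpn, 0 and 1 in Gad1, 0 and 1 in Cea1, 0 and 4 in Ins2, and 1 and 4 in Tspan8. Of 7 BBSome genes, which carry membrane cargo in cilia, none was higher in any sort, and the numbers lower were 0 in Pdpn, 3 in Gp2, 2 in Gad1, 2 in Cea1, 4 in Ins2 and 3 in Tspan8. Bbs7 was lower in 4 of these sorts, with differences of -0.93 in Gad1, -1.29 in Cea1, -1.05 in Ins2 and -1.46 in Tspan8. Of 6 IFT proteins under other names, at most 1 was higher and at most 1 lower in each sort; Cluap1, an IFT-B protein, was lower in Cea1 (-0.83), Ins2 (-1.12) and Tspan8 (-0.82).

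Foxj1 itself, the forkhead factor of motile ciliogenesis, passed the test in the Gp2 sort alone (-0.83, interval -1.39 to -0.26, adjusted p = 0.016 by limma), and its Gp2 groups overlapped. Its differences were 0.02 in Pdpn, 0.48 in Gad1 (interval -0.03 to 0.98), 0.15 in Cea1, 0.45 in Ins2 and 0.14 in Tspan8. Mcidas, a coactivator that starts the multiciliated programme, was higher in Gad1-positive cells (1.43, adjusted p = 8.5e-05) and lower in Pdpn-positive (-1.04) and Tspan8-positive cells (-1.26). Ccno, a cyclin needed for making many centrioles, was higher in Gad1-positive cells (1.54) and lower in Tspan8-positive cells (-2.06, adjusted p = 1.7e-11). Among all 14 regulators the counts higher and lower were 1 and 2 in Pdpn, 2 and 5 in Gp2, 3 and 2 in Gad1, 0 and 3 in Cea1, 1 and 2 in Ins2, and 1 and 4 in Tspan8. The share called was 21.4% in Pdpn, Cea1 and Ins2 and 35.7% in Gad1 and Tspan8, each below that of all genes given above. In Gp2 it was 50%, against 39% of all genes. The regulators went both ways, with differences from -1.12 to 1.54 in Gad1 and from -1.40 to 2.17 in Gp2.

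Genes of dividing cells moved with several sorts. Of 13 proliferation genes, 5 were higher in Pdpn-positive and 9 in Gp2-positive cells, with none lower, where the motile genes were lower. In Gad1-positive cells 12 were lower (array means 6.09 to 6.36, against 8.23 to 8.61 in Gad1-negative cells), in Cea1-positive cells 12, in Ins2-positive cells 11 and in Tspan8-positive cells 12 (array means 5.17 to 5.37, against 7.48 to 7.72 in Tspan8-negative cells), with none higher. Low proliferation genes thus went with higher motile genes in Gad1 and Ins2 and with lower motile genes in Tspan8, and their part in the results was not tested. Genes of other cells were counted in the same way. The counts higher and lower of 10 endothelial genes were 3 and 2 in Pdpn, 1 and 4 in Gp2, 3 and 1 in Gad1, 6 and 0 in Cea1, 1 and 0 in Ins2, and 2 and 1 in Tspan8. Of 12 dendritic cell and macrophage genes, 3 and 2 were higher and lower in Pdpn, 1 and 4 in Gp2, 2 and 0 in Gad1, 2 and 0 in Cea1, 1 and 1 in Ins2, and 3 and 2 in Tspan8. Of the 2 tested B cell genes, Cd79b was lower in Pdpn-positive cells (-1.83) and higher in Gad1-positive (0.60), Cea1-positive (1.13) and Ins2-positive cells (0.93). Of 12 mTEC identity genes, 0 were higher and 7 lower in Gp2-positive cells, with Aire, the factor that drives tissue-restricted expression in mTECs, at -2.26, and Aire was lower in Tspan8-positive (-2.76) and Pdpn-positive cells (-1.32) as well. The counts of these identity genes were 4 higher and 5 lower in Pdpn, 3 and 0 in Gad1, 2 and 5 in Cea1, 5 and 2 in Ins2, and 4 and 6 in Tspan8. Thymocyte genes outside the Gp2 sort were 2 higher and 0 lower in Pdpn, 2 and 2 in Gad1, 0 and 0 in Cea1, 1 and 1 in Ins2, and 0 and 2 in Tspan8. Fibroblast genes outside the Pdpn sort were 0 and 6 in Gp2, 2 and 1 in Gad1, 0 and 5 in Cea1, 0 and 3 in Ins2, and 0 and 5 in Tspan8, and cortical epithelium genes outside the Gp2 sort 4 and 4 in Pdpn, 2 and 0 in Gad1, 1 and 4 in Cea1, 1 and 4 in Ins2, and 0 and 3 in Tspan8.

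The values above come from 1 probe per gene. Of the 86 calls over genes and sorts, 48 were of a gene with another probe that passed the filter. In 37 of these every further probe shared the sign of the probe used, and in 11 at least 1 did not, namely for Dnah9, Dnah11, Dnah17, Ift74, Ift81 and Ift140. The spans of 9 tested genes overlap that of a neighbour, among them Rsph1 with Ubash3a (4663 bases), Rsph9 with Mrps18a (6871 bases), Ift74 with Lrrc19 (14424 bases) and Ift140 with Tmem204 (23413 bases), and without probe positions the source of the signal in such genes was not checked.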

How the data were processed

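Total RNA of the sorted mTECs (200 ng, amplified to biotin-labelled cRNA, per the labels' protocols) was measured on Illumina bead arrays. The deposited table holds a bead intensity and a detection p-value per probe and array, per the file headers, unnormalised. The authors' normalized intensities were used as an alternative only, and their method is not given in the sources used here. That alternative was fitted on all 35 arrays, Ins2-negative replicate 2 included, so it differs in the arrays as well as the normalisation. Replicate 2 of Ins2-negative cells was left out of all other fits, since its signal column held detection p-values. It was the only signal column not used. Bead numbers carried no names, so the 46089 probes were linked to the platform annotation by matching values between the deposited tables, and named through RefSeq (GRCm38.p6).

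Intensities were corrected by normexp with negative controls inferred from detection p-values (offset 16), quantile normalised and put on the log2 scale. The 34083 probes kept were those detected (p below 0.05) on 2 or more arrays of some group, and each gene was read from its kept probe with the highest mean. One limma fit over 12 group means (22 residual degrees of freedom, eBayes with trend) gave each difference, tested over 18090 genes per sort with Benjamini-Hochberg adjustment at 0.05. Where a group had the probe detected on no array, the fold is a bound: the brighter group's mean over the dimmer group's mean of the higher of its own value and the lowest detected signal per array. The number of arrays limits the precision. The fit was tested on simulated data. R 4.3.3, limma 3.58.1, Python 3.11.15, pandas 2.3.3, NumPy 2.4.6 and matplotlib 3.10.9 were used.

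The genes and lists were chosen with earlier results of these data known. All genes under the symbol rule could be named, and from each list up to 3 genes a sort with the smallest adjusted p, Foxj1 always. Same-numbered replicates deviated together in the Pdpn sort (r = 0.199, 0.156 and 0.205, each over 0.1, the limit set for every pair), so the numbers pair those arrays by that check. In Cea1 (0.081, 0.212 and 0.137), Tspan8 (0.078, 0.068 and 0.085) and Gad1 (-0.001, 0.072 and 0.033) at least 1 pair was below that limit, and Gp2 and Ins2 had under 3 pairs. Alternatives were other background corrections, scalings, filters, probes, weights, a replicate block, fits per sort and leaving out each array; a slide block was not run, as no slide is given in the files used.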

Additional observations from a re-analysis of the deposited data

Results flagged for a closer look

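The size of the difference between positive and negative cells differed between sorts for 23 of the 33 genes, by the F test of limma over the 6 sorts with Benjamini-Hochberg adjustment over all genes, a test that 61.5% of all genes passed. The adjusted p of the motile genes were, in order, Rsph1 (2.9e-16), Dnah11 (3.0e-12), Dnah9 (4.1e-12), Dnah2 (1.2e-10), Rsph9 (1.8e-10), Tekt1 (2.8e-10), Tekt5 (5.7e-09) and Dnaic2 (2.4e-07), and then Dnah17 (3.5e-07), Dnaic1 (5.1e-07), Rsph4a (9.6e-06), Dnah5 (0.0041), Rsph14 (0.0044), Dnah8 (0.0098) and Rsph3a (0.043). Rsph1, Dnah2, Rsph9, Tekt1 and Tekt5 were lower in Pdpn-positive and Gp2-positive cells and higher in Gad1-positive cells, and Dnah11 ran the other way in Pdpn and Gad1. The adjusted p of the Ift genes were Ift81 (6.4e-06), Ift20 (2.0e-05), Ift43 (1.3e-04), Ift172 (9.6e-04), Ift27 (0.0044), Ift52 (0.018), Ift22 (0.032) and Ift80 (0.044). Ift81 was higher in Cea1-positive and Tspan8-positive cells, and Ift20 was lower in positive cells of the Pdpn, Gp2, Ins2 and Tspan8 sorts and higher in Gad1-positive cells. No other gene passed this test.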

How the results depend on the processing

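Of the 12 counts of called genes (motile and Ift in 6 sorts), those that moved by over 1.5 times were as follows. Median scaling gave 1 called Ift gene in Pdpn (5 as reported), 11 in Gp2 (7) and 1 in Cea1 (2). Array weights gave 4 Ift genes in Gp2 (7) and 10 in Tspan8 (6), and fitting each sort alone gave 1 in Gp2 (7) and 3 in Ins2 (6). With the second probe, where a gene has one, 8 motile genes were called in Pdpn (13) and 7 in Gad1 (12), and 1 Ift gene in Cea1 (2) and 3 in Ins2 (6). Leaving out 1 array at a time gave 4 to 7 Ift genes in Gp2, 3 to 7 in Ins2 and 3 to 6 in Tspan8, and 3 to 5 motile genes in Cea1, where 5 were called without Cea1-positive replicate 3. The number of genes whose differences differed between sorts was 25 under median scaling (23).

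Of the 86 calls, 24 were lost or reversed under median scaling (22 and 2), 27 with the second probe (16 and 11), 15 with each sort fitted alone, 8 with array weights, 5 with the authors' normalized values, 4 with no background correction, 2 with normalization within each sort, 2 with no detection filter and 0 with detection required on every array of a group. Signs turned under the first 2 of these settings only. With the second probe the difference was -0.0085 (Dnah11), 0.19 (Dnah17), 0.23 (Dnah9) and -0.0613 (Ift81) in Pdpn, 0.20 (Ift140) in Gp2, 0.41 (Dnah11), -0.0682 (Dnah17) and -0.12 (Dnah9) in Gad1, 0.0497 (Dnah11) in Cea1, 0.23 (Ift74) in Ins2 and 0.41 (Dnah11) in Tspan8. Under median scaling it was -0.17 (Ift172) and -0.0118 (Rsph9) in Ins2. The cause was not tested. With a replicate block 5 calls were lost (Ift74 in Gp2 and Tspan8, Ift80 in Gp2, Rsph14 in Gad1 and Tspan8), none of them in Pdpn, and 13 motile and 5 Ift genes were called in Pdpn. Leaving out 1 array lost at least 1 time the call of 28 of the 86 pairs of gene and sort, and 58 kept it throughout. Genes near background limit the comparison: 7 of the 33 were detected on fewer than 17 of the 34 arrays.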
